A study of Mus musculus with 36 samples.

Results

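Apolipoproteins are the protein parts of lipoproteins, the particles that carry triglyceride and cholesterol in blood. The 10 genes described here, Apoa1, Apoa2, Apoa4, Apoa5, Apob, Apoc1, Apoc3, Apoe, Apoh and Apom, were taken by their symbols from count tables of 21955 symbols, and all 10 passed the filter on low counts that left 13436 genes. The libraries held total RNA, depleted of ribosomal RNA, from livers of C57BL/6JN mice, an inbred laboratory strain, sampled before and during regeneration. Young mice were 4 months old and old mice 18 months old, and the submitters named the old mice as the treated group. The time points were labelled before, 48, 72, 96, 120 and 240, with no unit, and the labels do not say how regeneration was induced, so each time point is named by its label. The 2 ages and 6 time points make 12 groups with 3 libraries each, 36 in all, and no genotype or drug was named for any group. The labels do not say that the 3 libraries of a group came from separate animals, so p-values measure the spread between libraries, which may in part be technical.

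The liver makes most plasma apolipoproteins. Hepatocytes load triglyceride onto apolipoprotein B to make very-low-density lipoprotein (VLDL), release apolipoprotein A-I and A-II for high-density lipoprotein (HDL), and add apolipoproteins C and E, which set how fast a particle is broken down and taken up again. The regenerating liver is known to store lipid for a time, and its handling of lipoproteins has been studied for that reason. Apoa4 is in rodents a gene of both intestine and liver.

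Library totals ranged from 2328233 to 6034446 counts (median 4439170), and the 10 genes together took 4.33% to 6.95% of a library. The smallest count of any of them in any library was 235. Levels are given as CPM, the usual depth-scaled count, with library totals scaled by the TMM method. In 12 libraries, 1 per group, Y-linked transcripts were present, and they were absent or nearly so in the other 24. Each group therefore held tissue from more than 1 animal, and this difference, which is not in the labels, is part of the spread within every group. Replicate 2 of old mice at 48 held the lowest level of Apoa2, Apoc1, Apoe, Apoh and Apom among all 36 libraries, and replicate 1 of that group held the highest level of Apoa4. Where leaving out either library ended the call of a gene named at 48 in old mice, the value without it is given. The summed level of 10 hepatocyte markers was 23597 to 28042 CPM before and 15720 to 18418 CPM at 48 in young mice, and 19860 to 25134 CPM before and 16148 to 17482 CPM at 48 in old mice. Of 9 tested hepatocyte markers, 3 fell in young and 6 in old mice at 48, and their part in the changes of apolipoprotein genes was not tested. Of the other lists, 1 of 12 macrophage markers rose in young and 5 fell in old mice at 48, 3 of 10 endothelial markers fell in each age, and 1 of 10 stellate cell markers rose in young mice. None of the 3 tested biliary markers was called there, and of 4 tested T and B cell markers 3 fell in old mice. Among all genes tested, 21.9% were called at 48 in young and 24.1% in old mice. Without replicate 2 of old mice at 48, 3 hepatocyte, 2 macrophage, 2 endothelial and 2 T and B cell markers fell there (16.8% of all genes called). The macrophage count was also 2 without replicate 1 and was 8 without replicate 3. In whole tissue, fewer cells of a type and less RNA per cell cannot be told apart.

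Apoa1, Apoc3, Apoa4 and Apoa5 lie together on mouse chromosome 9 (GRCm38, RefSeq positions 46228630 to 46271921, a span of 43.3 kb). Apoc1 and Apoe are neighbours on chromosome 7 (19689480 to 19701310, 11.8 kb). Since Apoa4 changed most of the 10 genes and its ratio to its neighbours changed, the 250 bases before the RefSeq start of 3 genes of the first cluster are printed here, all from the plus strand of GRCm38.p6: Apoa1 at chr9:46228380-46228629, Apoa4 at chr9:46240594-46240843 and Apoa5 at chr9:46268358-46268607. Capitals mark matches, on either strand, to any of 7 short motifs. These are the HNF4 site part AAAGTCC, the nuclear receptor core AGGTCA and the HNF1 core GTTAAT, as well as 2 forkhead box cores, TGTTTAC besides TGTTTGC, the TATA box motif TATAAA and the CCAAT box. No motif is part of another.
Apoa1: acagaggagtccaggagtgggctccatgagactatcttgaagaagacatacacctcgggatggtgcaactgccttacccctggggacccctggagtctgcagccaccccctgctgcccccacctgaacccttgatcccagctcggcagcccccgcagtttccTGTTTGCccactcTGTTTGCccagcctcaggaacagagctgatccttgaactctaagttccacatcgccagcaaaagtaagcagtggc
Apoa4: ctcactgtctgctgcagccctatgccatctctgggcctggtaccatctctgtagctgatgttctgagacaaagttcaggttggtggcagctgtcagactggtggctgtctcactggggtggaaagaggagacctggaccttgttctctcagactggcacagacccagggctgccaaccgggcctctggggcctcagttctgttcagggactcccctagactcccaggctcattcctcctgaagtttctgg
Apoa5: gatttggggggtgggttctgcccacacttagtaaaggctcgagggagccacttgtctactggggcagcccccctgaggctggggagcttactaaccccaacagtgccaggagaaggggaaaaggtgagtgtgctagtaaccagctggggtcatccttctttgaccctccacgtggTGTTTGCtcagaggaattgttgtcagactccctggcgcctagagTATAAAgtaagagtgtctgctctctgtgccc
The Apoa1 window held TGTTTGC at 88 and at 75 bases before the start, and the first Apoa5 window held it at 75 bases before, with TATAAA at 31. TGTTTGC was present in 4.30% of 32851 RefSeq windows of this length, and TATAAA in 12.4%. The Apoa4 window held none of the 7, which says only that these letters are not in this window. Windows were matched for 8 of the 10 genes, all but Apoc1 and Apoc3. Of the 8, TGTTTGC was found in Apoa1, Apoa5 and Apob, and TATAAA in a window of Apoa2, Apoa5, Apob and Apoe. AGGTCA was in a window of Apoa2 and of Apoh, against 14.0% of all windows, and both genes also held TGTTTAC (3.17%). AAAGTCC (3.58%) and CCAAT (33.8%) were found in Apoa2 alone of the 8, and GTTAAT (6.43%) in Apoe alone. These matches are descriptions of sequence and were not tied to the counts.

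Per kilobase of exon (GENCODE M21), the level averaged over all libraries was highest for Apoa1, at 6301 CPM per kb, and Apoe, at 5936 CPM per kb. Apoa2 (3012 CPM per kb), Apob (2196 CPM per kb) and Apoa4 (1140 CPM per kb) followed. Apoa5 stood at 888 CPM per kb and Apoc1 at 617 CPM per kb, while Apoc3, Apom and Apoh were lowest, at 296, 219 and 164 CPM per kb. This order does not hold in every group: in young mice before, Apoa4 stood at 279 CPM per kb, below Apoc1 at 642 CPM per kb, and in old mice at 48 it stood at 4195 CPM per kb, above Apob at 2149 CPM per kb.

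Each later time point was first compared with before in each age, to ask how these genes behave during regeneration. In young mice, 3 of the 10 genes were called at 48 and at 72 by edgeR's quasi-likelihood test at an adjusted p under 0.05. Apoa4 rose, and Apoa2 and Apoe fell. Among all genes tested, 21.9% were called at 48 and 17.4% at 72, so the share of apolipoprotein genes called was not far from the background. In old mice at 48, Apoa4 rose and Apoa2, Apoc1, Apoe and Apoh fell, 5 of 10 against 24.1% of all genes. In old mice at 72, Apoa4 and Apom rose and Apoa2 fell, 3 of 10 against 12.4%. At 96 and 120 only Apoa4 was called in old mice, where 6.82% and 3.87% of all genes were, and no member was called in young mice, where 1.4% and 0.581% were. By 240 no member was called in either age (0.246% of all genes in young and 0.156% in old mice).

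The median log2 change of the 10 genes was -0.38 in young mice at 48 and at 72, -0.11 in old mice at 48 and -0.19 in old mice at 72. The value in old mice at 48 turned with the library left out, to 0.04 without replicate 2, -0.23 without replicate 1 and -0.34 without replicate 3. The median of all genes lay between -0.01 and 0.01 in these comparisons. In young mice 8 of 10 estimates were below 0 at both times. Where no member was called, the count at an unadjusted p under 0.05 was 3 at 96, 1 at 120 and 0 at 240 in young mice and 0 at 240 in old mice, and DESeq2 called 0 in each. Over all later time points together, a test of any difference from before called Apoa2, Apoa4 and Apoe in young mice (21.4% of all genes). In old mice it called Apoa2, Apoa4, Apoa5, Apoc1 and Apoe (20.5% of all genes).

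**Figure D1:**
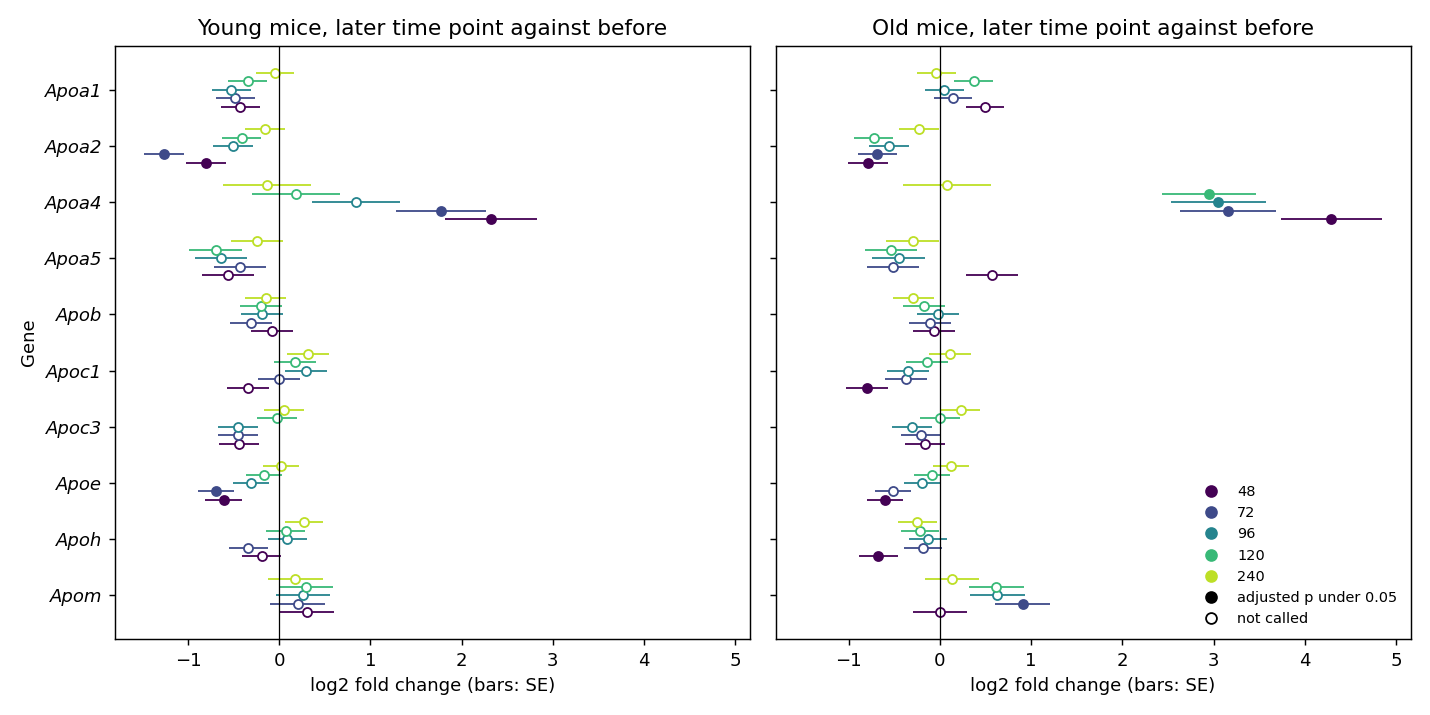
Log2 fold change of each of the 10 genes at each later time point against before, in young mice (left) and old mice (right). Points are estimates of the quasi-likelihood fit, bars are standard errors, colours are time point labels and filled points have an adjusted p under 0.05. Apoa4 in old mice lies furthest to the right, at 2.95 to 4.29 from 48 to 120 and at 0.08 at 240.

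Apoa4, which encodes apolipoprotein A-IV of chylomicrons and HDL, had the widest range of the 10 genes, with a 19.6-fold ratio between its highest and lowest group mean. In young mice before, its 3 libraries held 347, 727 and 443 CPM. At 48 they held 2355, 1779.9 and 3435 CPM, and at 72 they held 1736, 1479 and 1974 CPM. All 6 of these libraries were above all 3 libraries of before. The level rose by 2.32 ± 0.51 (SE) on the log2 scale at 48 (adjusted p = 0.00126) and by 1.77 ± 0.50 at 72 (adjusted p = 0.0145). Without replicate 1 of young mice before the adjusted p at 72 was 0.0763, with a change of 1.56, and without replicate 3 it was 0.0604, with a change of 1.70. At 96 the libraries held 833, 579.5 and 1306 CPM and overlapped those of before, with a change of 0.84 ± 0.49 (adjusted p = 0.425). At 120 they held 576, 635 and 515 CPM and at 240 they held 323, 440.5 and 621 CPM, within the range of before except for 1 library at 240 that lay just under it.

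In old mice the rise of Apoa4 was called at every time point from 48 to 120. The libraries held 558, 333 and 276 CPM before and 14563, 4944.5 and 3336 CPM at 48. At 72 the values were 5650, 2043 and 2744 CPM, at 96 they were 3011, 3258 and 3423 CPM, and at 120 they were 5461, 2478 and 1084 CPM. Each of these 12 libraries was above all libraries of before, while the values at 240, 432, 324 and 477 CPM, fell within the range of before. The changes against before were 4.29 ± 0.55 at 48 (adjusted p = 9.64e-06), 3.16 ± 0.52 at 72 (adjusted p = 0.000429), 3.05 ± 0.52 at 96 (adjusted p = 0.00119) and 2.95 ± 0.52 at 120 (adjusted p = 0.00187). At 48, Apoa4 ranked 26 by p among the 13436 genes. Over the alternatives and left-out libraries the change at 48 ranged from 3.41 to 4.67, and each kept an adjusted p of 0.0398 or less. The call at 120 was lost in a fit of only the 2 groups compared (adjusted p = 0.0789).

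**Figure D2:**
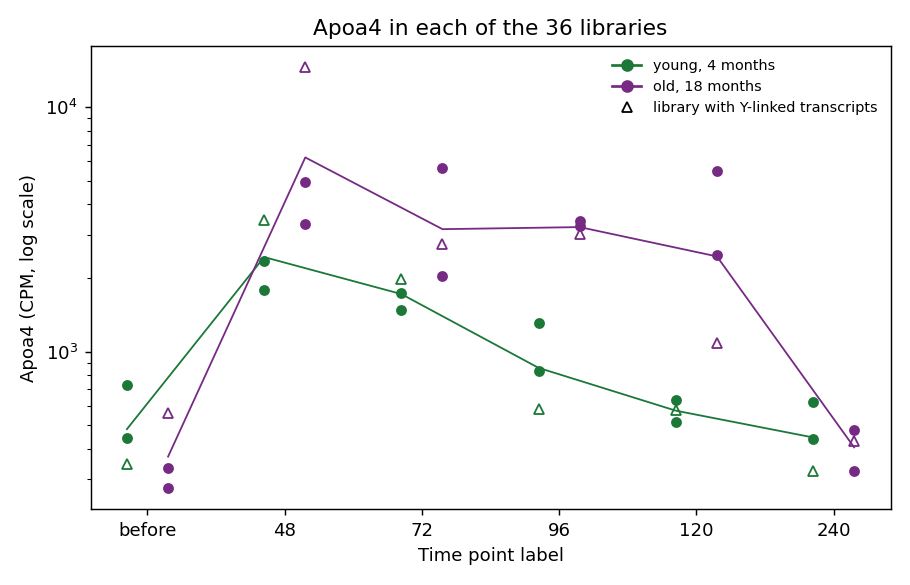
Apoa4 in each of the 36 libraries, as CPM on a log axis, against the time point label (equally spaced, not to scale). Green is young, purple is old, triangles are libraries with Y-linked transcripts and lines join geometric means of 3 libraries. Old libraries sit at 1084 to 14563 CPM from 48 to 120, all above the 276 to 558 CPM of old mice before.

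Ordered by group mean, Apoa4 was highest in old mice at 48 (7614 ± 6071 CPM, SD, n = 3), then in old mice at 72 (3479 CPM), 96 (3231 CPM) and 120 (3008 CPM), and next in young mice at 48 (2523.5 CPM) and 72 (1729.8 CPM). The remaining 6 groups had means of 389 to 906 CPM. The only neighbours in this order whose libraries did not overlap were young mice at 72 and young mice at 96.

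Intestinal epithelium also expresses Apoa4, so its other markers were looked at. Of 8 listed markers, 7 had rows in the tables, and their summed level ranged from 4.77 to 47.3 CPM over the libraries. Most of this was Fabp2, a fatty acid binding protein, with a mean of 14.6 CPM. Alpi, Sis, Cdx1 and Cdx2 were at 0 in 33, 32, 30 and 28 of 36 libraries and never reached more than 1.41 CPM. Lct was at 0 in 17 libraries, Vil1 in 3 and Fabp2 in 0, with highest levels of 0.94, 2.18 and 46.9 CPM. The highest summed level, 47.3 CPM, was in replicate 1 of old mice at 48, the library with the highest Apoa4, and its part in that level was not tested. Exons of Apoa4 overlap 2 GENCODE genes on the opposite strand, Gm10680 and Gm47528, and those of Apoa5 overlap Gm47544. The sources used here do not say whether counting used strand, so reads from such partners cannot be told apart.

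Age was compared next, at each time point. Before regeneration no apolipoprotein gene was called (0.0595% of all genes), with 1 at an unadjusted p under 0.05 (928 of all 13436 genes) and 0 by DESeq2. At 48, Apoa4 and Apoa5 were higher in old mice, 2 of 10 against 11.2% of all genes. No member was called at 72 (0% of all genes), 96 (0.171%), 120 (0%) or 240 (0.0149%). Unadjusted, 1, 2, 2 and 2 members had a p under 0.05 at these times, against 653, 1778, 1321 and 661 of all 13436 genes. DESeq2 called 0 members at 72 and 240, 1 at 96 and 1 at 120. Averaged over the 6 time points, Apoa4 was higher and Apoc1 lower in old mice, 2 of 10 against 5.98% of all genes.

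On the log2 scale, Apoa4 differed between old and young mice by -0.38 ± 0.48 before regeneration and by 1.59 ± 0.49 at 48. The difference stood at 1.01 ± 0.49 at 72 and 1.83 ± 0.50 at 96, reached 2.39 ± 0.51 at 120 and was -0.17 ± 0.48 at 240. Averaged, it was 1.05 ± 0.20 (adjusted p = 0.00168), and it ranged from 0.90 to 1.11 over 45 alternatives, all of them called. At 48 the adjusted p was 0.0340. Without replicate 1 of old mice at 48 the difference was 0.71 (adjusted p = 0.353), and without replicate 1 or 2 of young mice at 48 it was 1.53 (adjusted p = 0.121) or 1.39 (adjusted p = 0.134). A fit of only those 2 groups gave 1.62 (adjusted p = 0.245), and a fit with no filter on low counts gave 1.58 (adjusted p = 0.0718). At 96 all 3 old libraries, at 3011 to 3423 CPM, were above the young ones at 579.5 to 1306 CPM (adjusted p = 0.0864). At 120 the old libraries, at 1084 to 5461 CPM, were above the young ones at 515 to 635 CPM (adjusted p = 0.0665). DESeq2 called both, and so did a fit without the old 48 group. The difference at 96 was also called in a fit of only those 2 groups, and that at 120 without replicate 3 of old mice at 120.

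Whether the course over time differs with age was tested as 1 interaction over the 5 later time points. No member was called (2.76% of all genes), with 2 members at an unadjusted p under 0.05 (1892 of all 13436 genes). DESeq2 called 2. The adjusted p of Apoa4 in edgeR's test was 0.0595, and its separate interaction estimates were 1.97 ± 0.69 at 48, 1.39 ± 0.69 at 72, 2.21 ± 0.69 at 96, 2.76 ± 0.70 at 120 and 0.21 ± 0.68 at 240. Leaving out replicate 3 of young mice at 96, replicate 1 of old mice before or at 72, replicate 1 or 3 of old mice at 48, or replicate 3 of old mice at 120 brought this p under 0.05, and so did a replicate block (adjusted p = 0.0178). Apoa1 had an adjusted p of 0.224, which fell to 0.0285 without replicate 1 of old mice before.

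Among libraries with Y-linked transcripts alone, the age difference of Apoa4 averaged over time points was 1.16, and among the others it was 0.85, on the log2(CPM + 1) scale. The rise in old mice at 48 was 4.70 and 3.74 in these libraries, and that in young mice was 3.31 and 1.85. Other values differed more between these libraries. The change in old mice at 120 was 0.96 with Y-linked transcripts and 3.60 without, and the age difference before was 0.69 and -0.90. The interaction was -0.21 and 1.99 at 72 and 0.23 and 3.59 at 120. There is 1 library with Y-linked transcripts in each group, so these values have no replicate check.

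Apoa4 was also set against its 3 neighbours within each library. The ratio of Apoa4 to Apoa1 counts within a library was 0.0414 to 0.0823 in young mice before, 0.299 to 0.490 at 48 and 0.252 to 0.325 at 72. In old mice it was 0.0619 to 0.0783 before, 0.460 to 1.72 at 48 and 0.347 to 0.908 at 72. The 6 libraries of 48 and 72 exceeded the 3 of before by 2.54 on the log2 scale in young and by 3.20 in old mice (exact two-sided permutation test, p = 0.0119, the smallest that 84 assignments can give; adjusted p = 0.0159 over a family of 8 tests). The same held for Apoa4 to Apoc3, by 2.56 in young and 3.76 in old mice, and for Apoa4 to Apoa5, by 2.61 and 3.61, each with all 6 libraries above all of before and the same exact p. The ratio of the neighbours Apoc1 and Apoe differed by 0.46 on the log2 scale in young mice, with 5 of the 6 libraries above all of before (exact permutation test, p = 0.131, adjusted p = 0.150) and by -0.03 in old mice (exact permutation test, p = 0.905). These ratios do not depend on library scaling. The ratios and the joining of 48 with 72 were chosen after the values had been seen, and the adjusted p-values do not correct for that choice. The 3 Apoa4 ratios share the counts of Apoa4, so they are not separate results.

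**Figure D3:**
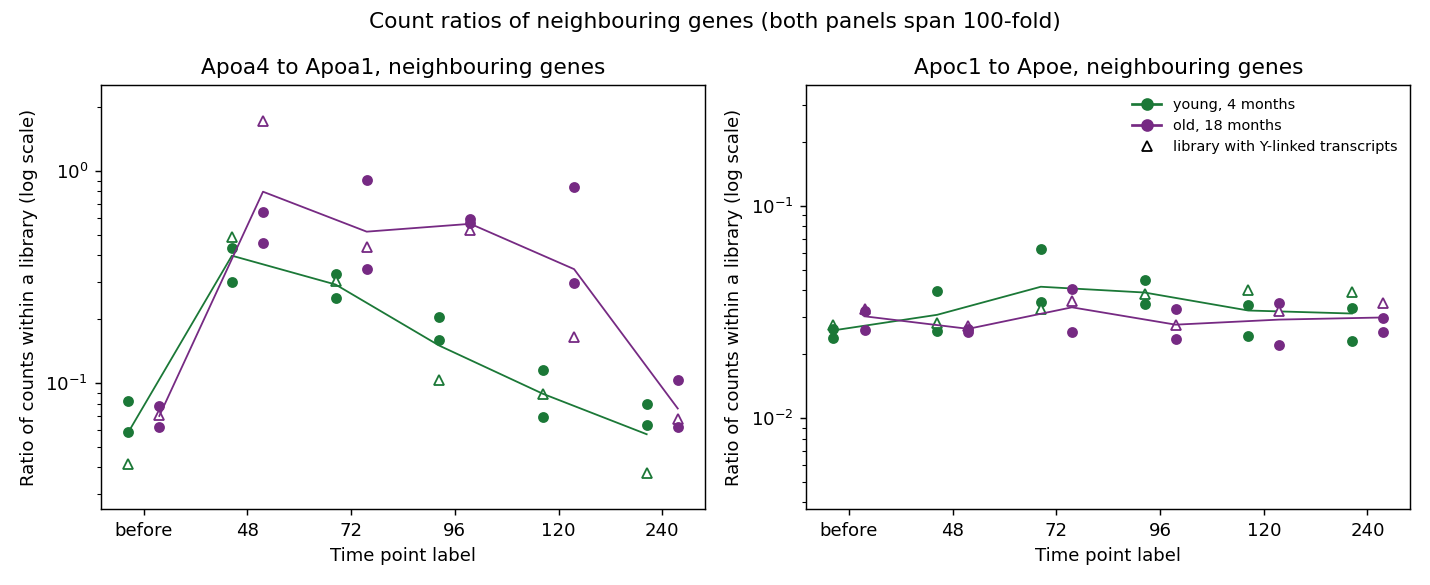
Ratio of counts within each library, Apoa4 to Apoa1 (left) and Apoc1 to Apoe (right), on log axes that both span 100-fold, against the time point label (equally spaced). Colours, triangles and lines are as in the plot of Apoa4 by library. The left ratio reaches 1.72 in old mice at 48 from at most 0.0823 before in either age, while the right ratio stays between 0.0221 and 0.0623 in all libraries.

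Apoa1, the main structural protein of HDL, was not called in any comparison by edgeR's test. It ranged 1.53-fold between group means, from 5400 CPM in old mice at 240 to 8251 CPM in young mice before. Before, the young libraries held 8376, 8835 and 7541 CPM and the old ones 7899, 4256 and 4463 CPM, so 2 of the 3 old libraries lay far below all young ones and 1 lay among them. At 48 the young libraries held 5447, 5959 and 7013 CPM and the old ones 8452, 7706 and 7257 CPM, so that all old libraries were above all young ones. The interaction at 48 was 0.92 ± 0.30 (adjusted p = 0.108, and 0.0338 by DESeq2), and the change in old mice at 48 was 0.49 ± 0.21 (adjusted p = 0.0882, and 0.0471 by DESeq2). Without replicate 1 of old mice before, that change was 0.87 (adjusted p = 0.00426) and the interaction 1.27 (adjusted p = 0.0321). The library left out was the 1 of its group with Y-linked transcripts. On the log2(CPM + 1) scale, the change was 0.10 among libraries with such transcripts and 0.78 among the others. The interaction was 0.35 and 1.30.

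Apoa2, the second HDL protein, fell in both ages. Its young libraries held 2269.8, 2496 and 2417 CPM before, 1540.3, 1397 and 1183 CPM at 48 and 821, 813 and 1361 CPM at 72. All 6 later libraries were below all of before. The level fell by 0.80 ± 0.22 on the log2 scale at 48 (adjusted p = 0.00821) and fell by 1.26 ± 0.22 at 72 (adjusted p = 0.000410). Without replicate 3 of young mice at 48 the change there was -0.69 (adjusted p = 0.0638), and the call at 72 held under all 47 alternatives. In old mice the libraries held 2149, 1949.6 and 2131 CPM before, 1620.4, 698 and 1292 CPM at 48 and 1446.5, 1382 and 1049 CPM at 72, again without overlap. The changes were -0.79 ± 0.22 at 48 (adjusted p = 0.00977) and -0.68 ± 0.22 at 72 (adjusted p = 0.0381). Without replicate 2 of old mice at 48 the first was -0.48 (adjusted p = 0.0890). The second was lost on leaving out any of the 6 libraries compared, with changes of -0.76 to -0.55 and adjusted p-values of 0.0502 to 0.180, and under 4 other settings (adjusted p = 0.0507 to 0.0781). At 120 in old mice the change was -0.73 ± 0.22, with no overlap with before (1177 to 1320.2 CPM), at an adjusted p of 0.0552 (0.0398 without replicate 1 and 0.0162 without replicate 2 of old mice at 48). DESeq2 called this change (adjusted p = 0.0200), as did a fit with a term for Y-linked transcripts (0.0493). It was also called without the old 48 group (0.0157) and without replicate 3 of young mice at 72 (0.0406). Apoa2 was highest in young mice before and lowest in young mice at 72, and old mice before and young mice at 120 were the only neighbours in its order of groups that did not overlap.

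Apom, a lipocalin of HDL that carries sphingosine-1-phosphate, was the only member besides Apoa4 to be called higher at any time against before. Its old libraries held 168, 154 and 147 CPM before and 240, 345 and 297 CPM at 72, with no overlap, a rise of 0.91 ± 0.30 (adjusted p = 0.0455). That call was lost in 17 of 47 alternatives, 15 of them with a library left out, at adjusted p-values up to 0.146 (without replicate 2 of old mice at 72). At 48 the old libraries were spread from 47.6 to 249 CPM, the widest spread of this gene, with replicate 2 lowest. Without that library Apom was also called higher in old mice at 96, by 0.66 (adjusted p = 0.0241), and at 120, by 0.64 (adjusted p = 0.0348), and any time difference in old mice was called (adjusted p = 0.00316). Any time difference was also called by DESeq2 (adjusted p = 0.0248) and with total-count scaling (0.0358). The same held without replicate 3 of old mice at 48 (0.00543) or replicate 2 of old mice at 240 (0.0405). Young libraries stayed between 175 and 272 CPM at all times, and no change was called in them.

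Apoa5 and Apoc3 act on the clearance of triglyceride: apolipoprotein A-V favours lipolysis by lipoprotein lipase, and apolipoprotein C-III hinders it. Apoa5 in young libraries was 2769, 2818 and 3022 CPM before and 1903, 2466 and 1460 CPM at 48, and in old libraries it was 2035, 2373 and 3280 CPM before and 4097, 5338 and 1979.8 CPM at 48. At 48 it was 0.97 ± 0.29 higher in old than in young mice (adjusted p = 0.0265), although the lowest old library overlapped the young ones. The difference was 0.63 (adjusted p = 0.258) without replicate 2 of old mice at 48 and 0.91 (adjusted p = 0.0609) without replicate 1. It was 0.94 (adjusted p = 0.0948) without replicate 1 of young mice at 48 and 0.79 (adjusted p = 0.144) without replicate 3. All young libraries from 48 to 120, at 1460 to 2559 CPM, were below those of young mice before. None of these falls was called. Fits of only the 2 groups compared called those at 48, 96 and 120 (adjusted p = 0.0480, 0.0345 and 0.0436). Against before, the changes at 48 were -0.56 ± 0.29 in young and 0.57 ± 0.29 in old mice, neither called, and the interaction there was 1.13 ± 0.41 (adjusted p = 0.145). Without replicate 3 of old mice at 48, the change in old mice was 0.88 (adjusted p = 0.0190) and the interaction 1.44 (adjusted p = 0.0194), both called. The test of any time difference in old mice called Apoa5 (adjusted p = 0.0183), a call lost without replicate 1 or replicate 2 of old mice at 48, at adjusted p-values up to 0.198. Apoc3 was called in no comparison and ranged 1.45-fold between group means. Its changes in young mice were -0.44 ± 0.22 at 48 and -0.45 ± 0.22 at 72 (adjusted p = 0.159 and 0.157), with 1 of 3 libraries at 48 and 1 at 72 inside the range of before. Without replicate 1 of young mice at 72 the change there was -0.73 (adjusted p = 0.0460).

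Apob, the non-exchangeable protein of VLDL and low-density lipoprotein, was the member with the smallest range. Its group means ran from 25565 CPM in old mice at 240 to 35683 CPM in young mice before, a 1.40-fold ratio, and no neighbours in that order were free of overlap. Its changes against before lay between -0.31 and -0.02 at all 5 later times in both ages, all of them below 0 and none called.

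Apoe, the ligand that lets remnant particles bind hepatocyte receptors, fell early in young mice. Its young libraries held 13334, 14378 and 13533 CPM before, 8929, 9906 and 8199.7 CPM at 48 and 6956, 8029 and 10585 CPM at 72. The 6 later libraries were all below those of before, with changes of -0.61 ± 0.20 at 48 (adjusted p = 0.0271) and -0.69 ± 0.20 at 72 (adjusted p = 0.0166). In old mice the libraries held 12251, 11037 and 12252 CPM before and 10410.0, 5312 and 7684 CPM at 48, also without overlap, and the change was -0.60 ± 0.20 (adjusted p = 0.0275). These calls were close to the threshold. At 48 in young mice the call was lost without any 1 of 5 of the 6 libraries compared, all but replicate 2 of 48, at adjusted p-values of 0.0518 to 0.127. At 72 it was lost without replicate 2 of before or replicate 1 or 2 of 72, at 0.0518 to 0.110. Among old mice at 48 it was -0.36 (adjusted p = 0.193) without replicate 2 of that group, and was also lost without replicate 3 or without replicate 1 or 3 of before (adjusted p = 0.0572 to 0.0906). With no filter on low counts the adjusted p at 48 was 0.0639 in young and 0.0670 in old mice. At 72 the old libraries, at 9198, 8317 and 7330 CPM, were also below all of before, but the fall was not called. DESeq2 called it (-0.51, adjusted p = 0.0360), and so did a fit without the old 48 group (-0.48, adjusted p = 0.0448). By 240 the difference from before was 0.02 ± 0.20 in young and 0.125 ± 0.20 in old mice on the log2 scale.

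Apoc1, which slows the uptake of remnants, lies next to Apoe. In old mice at 48 it fell by 0.80 ± 0.23 (adjusted p = 0.0130), from 401, 354 and 319 CPM before to 283, 140 and 195 CPM, with no overlap. Without replicate 2 of that group the change was -0.56 (adjusted p = 0.108), and without replicate 1 of old mice before it was -0.68 (adjusted p = 0.0527). In young mice at 48 the change was -0.34 ± 0.23 and was not called. Averaged over time points, Apoc1 was lower in old than in young mice, with a difference of -0.32 ± 0.09 (adjusted p = 0.0394). The estimate lay between -0.37 and -0.27 over 45 alternatives, but the adjusted p passed 0.05 in 19 of the 36 fits with a library left out and reached 0.0823. The test of any time difference in old mice gave an adjusted p of 0.0449, lost in 27 of 45 alternatives.

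Apoh, which encodes beta-2-glycoprotein I, a plasma protein that binds anionic phospholipids, was called once. In old mice at 48 it fell by 0.67 ± 0.21 (adjusted p = 0.0209), from 244, 218 and 191 CPM to 152, 85.1 and 172 CPM, without overlap. Without replicate 2 of that group the change was -0.40 (adjusted p = 0.182), and the call was also lost without replicate 1 or 2 of old mice before (adjusted p = 0.0841 and 0.0530). All 4 falls called in old mice at 48 therefore depended on replicate 2. Without it 1 of the 10 genes was called at that time, Apoa4, against 16.8% of all genes. In that library the macrophage marker list summed to 309 CPM against 718 and 1035 CPM in the other 2. The biliary list summed to 216 CPM against 68.5 and 57.1 CPM. This sum was mostly 1 gene, Spp1, since the next highest biliary marker, Sox9, reached at most 25.1 CPM in any library. The hepatocyte list summed to 16148 against 16482 and 17482 CPM, though Alb alone ranged from 4057 to 9078 CPM in this group. The part of these lists in the falls was not tested.

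**Figure D4:**
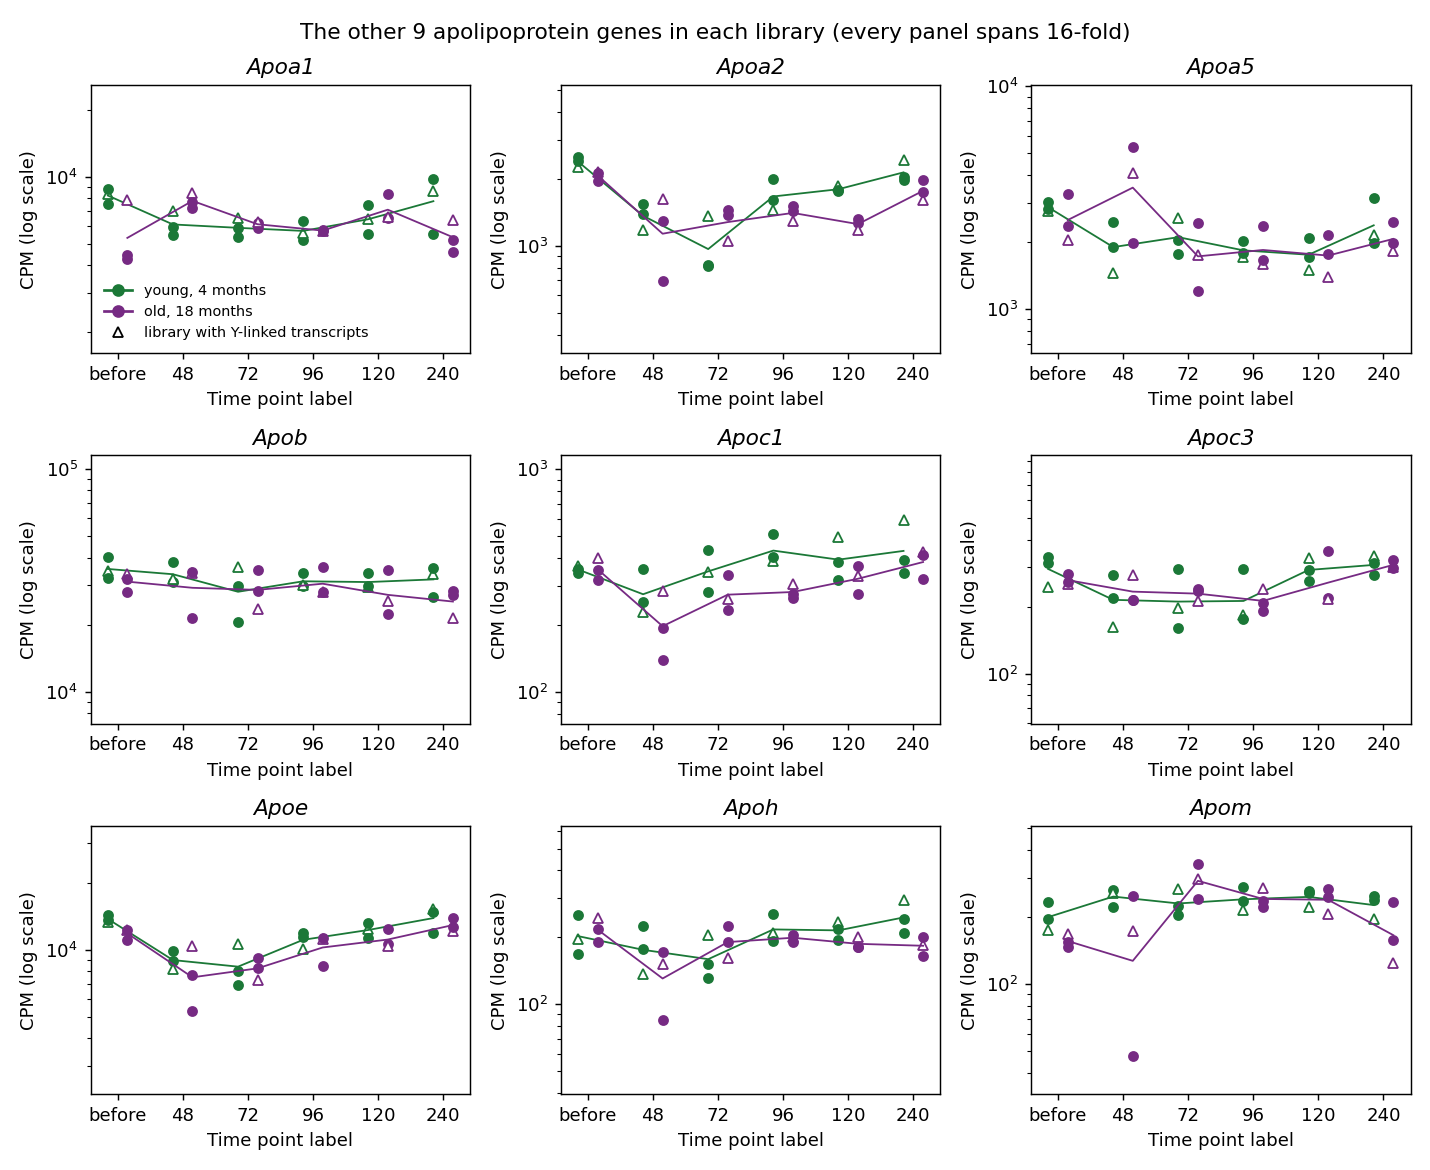
The other 9 genes in each of the 36 libraries, as CPM on log axes that all span 16-fold, against the time point label (equally spaced). Colours, triangles and lines are as in the plot of Apoa4 by library. Apob is nearly level, from 20573 to 40089 CPM, Apoa2 and Apoe dip at 48 and 72, and the lowest point of Apom, 47.6 CPM, is replicate 2 of old mice at 48.

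Across the 36 libraries, Apoa2 and Apoe went together most closely of all pairs of members (Pearson r = 0.86 on log2(CPM + 1), and 0.80 with group means removed). Apoa2 and Apoh followed (0.74, and 0.79 with group means removed). Apoa4 and Apoa2 went opposite ways over all libraries (-0.65), but not within groups (0.24). The libraries share their groups and scaling, so these values are descriptions. Among 12655 other named genes, the one most like Apoa4 over the 36 libraries was Cyp4a31 (r = 0.92), a fatty acid omega-hydroxylase of the Cyp4a family, followed by Syt12 (0.88). Apoa2 was most like Slc10a1 (0.91), the bile acid importer of hepatocytes, and Lmbrd1 (0.90). For Apoe the nearest genes were Azin1 (0.90) and Pink1 (0.90), and for Apom they were Habp2 (0.92) and Amt (0.85). Apoa5 was nearest to Mfsd2a (0.83), a lysophospholipid carrier, and Ehhadh (0.80), an enzyme of peroxisomal fatty acid oxidation. Apoc1 was nearest to Mrpl14 (0.84) and Clcn2 (0.84), Apoh to Hagh (0.84) and Serpinf1 (0.81), Apob to Lamp2 (0.81) and Tmem30a (0.78), Apoa1 to Serpina3k (0.79) and Rybp (0.69), and Apoc3 to Arpc1a (0.77) and S100a1 (0.76).

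At 48, 12.2% of all genes rose and 9.79% fell in young mice, and 12.1% rose and 12% fell in old mice, which is the background for the gene lists that follow. Of the genes called in young mice at 48, 55.4% were higher, against 69.95% with total-count scaling. Other genes of the apolipoprotein class were counted from a list of 21, of which 18 were tested. At 48 in young mice 2 rose, Saa1 and Saa2, and A1cf fell. Saa1 and Saa2 encode the acute-phase apolipoproteins of HDL and are near-identical copies, so the split between them is uncertain. Saa2 went from 19.1 ± 6.81 to 1732 ± 198 CPM (SD, n = 3), a log2 change of 6.50 ± 1.45 (adjusted p = 0.00188), and Saa1 from 34.4 ± 16.2 to 1617 ± 271 CPM. In old mice at 48 Saa1, Saa2 and Apoc2, the activator of lipoprotein lipase, rose and 3 fell, among them A1cf, a cofactor of Apob messenger RNA editing. The median change of the 18 was -0.11 in young and -0.25 in old mice.

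Of 21 genes that assemble and secrete VLDL, 2 rose and 6 fell in young mice at 48, and 3 rose and 4 fell in old mice, with medians of -0.16 and 0.08. Mttp, which loads lipid onto Apob protein, changed by -0.25 ± 0.14 in young and 0.08 ± 0.14 in old mice at 48, neither called. It fell by 0.49 ± 0.14 in young mice at 72 (adjusted p = 0.0172). Dgat2, which makes triglyceride, fell by 1.20 ± 0.23 in young and fell by 0.91 ± 0.23 in old mice. Sar1b, the small GTPase of the vesicles that move lipoproteins out of the endoplasmic reticulum, fell by 1.16 ± 0.23 in young and fell by 1.34 ± 0.23 in old mice, with a change of -1.17 ± 0.23 in old mice at 120. Aadac fell by 1.35 ± 0.27 in old mice. In young mice Aadac went from 298 ± 33.4 to 238 ± 21.5 CPM (SD, n = 3) and was not called.

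Of 12 genes of HDL maturation and cholesterol efflux, 5 fell in each age at 48, and 1 rose, Abca1, in old mice. Lipg, endothelial lipase, fell from 118 ± 35.7 to 24.0 ± 10.1 CPM in young and from 89.8 ± 45.2 to 12.1 ± 6.40 CPM in old mice. Abcg5, a subunit of the sterol exporter, fell with log2 changes of -1.93 ± 0.40 in young and -1.58 ± 0.40 in old mice, and Pltp, the phospholipid transfer protein, fell with changes of -1.07 ± 0.35 and -1.87 ± 0.33. Abca1, which gives lipid to apolipoprotein A-I, changed by -0.28 ± 0.25 in young and rose by 0.81 ± 0.25 in old mice, where its libraries ranged from 420 to 1312 CPM. Lcat, which esterifies HDL cholesterol, changed by 0.23 ± 0.23 and 0.17 ± 0.23, neither called.

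Of 17 tested genes of clearance and lipolysis, 1 rose and 4 fell in young mice at 48, and 2 rose and 2 fell in old mice. Sdc1, the heparan sulfate proteoglycan that binds remnants, rose by 0.95 ± 0.26 and 1.09 ± 0.26. Gpihbp1, the anchor of lipoprotein lipase, fell by 0.89 ± 0.26 in young mice, and Angptl4, an inhibitor of that lipase, rose by 1.80 ± 0.58 in old mice. In the other age neither was called. There Gpihbp1 went from 25.6 ± 4.41 to 18.7 ± 3.13 CPM (old mice). Angptl4 went from 155 ± 59.2 to 167 ± 60.9 CPM (young mice, SD, n = 3).

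Of 29 tested regulators of apolipoprotein genes, 7 fell and 0 rose in young mice at 48, and 6 fell and 2 rose in old mice (medians -0.32 and -0.17). Srebf1, a master regulator of lipid synthesis, fell from 578 ± 134 to 195 ± 72.8 CPM in young and from 662 ± 91.6 to 69.9 ± 24.7 CPM in old mice. Its interaction at 48 was called (-1.67 ± 0.43, adjusted p = 0.0458). Nr1d1, a clock repressor, fell by 2.33 ± 0.55 in young mice, and Nr0b2, the small heterodimer partner, fell by 1.75 ± 0.59 in old mice. Both were also lower on average in the other age, without a call. There Nr1d1 went from 106 ± 48.8 to 39.7 ± 20.4 CPM (old mice). Nr0b2 went from 54.5 ± 26.7 to 28.8 ± 19.9 CPM (young mice, SD, n = 3). Creb3l3, a hepatic activator of Apoa4 among other genes, rose in old mice at 48 by 0.81 ± 0.23 (adjusted p = 0.0129) and changed by -0.17 ± 0.23 in young mice. Its interaction there had an adjusted p of 0.118. Hnf4a, the nuclear receptor that drives many of these genes, changed by 0.01 ± 0.14 and 0.16 ± 0.14, neither called.

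Of 20 other secreted hepatocyte proteins, 2 rose and 0 fell in young mice at 48, and 6 rose and 2 fell in old mice (medians 0.28 and 0.11). The median in old mice was 0.40 without replicate 2 of that group and 0.02 and 0.0037 without replicates 1 and 3. Hpx, the haem carrier, rose by 1.74 ± 0.33 and 1.19 ± 0.33, Itih4 by 1.04 ± 0.28 in young mice, and Fga, a fibrinogen chain, by 1.36 ± 0.33 in old mice. In the other age neither Itih4 nor Fga was called. There Itih4 went from 2598 ± 224 to 3867 ± 61.9 CPM (old mice). Fga went from 7612.5 ± 290 to 13936 ± 2465 CPM (young mice, SD, n = 3). Alb, albumin, changed by -0.10 ± 0.22 in young and fell by 0.63 ± 0.22 in old mice (adjusted p = 0.0405).

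Several calls of these lists in old mice at 48 rested on replicate 2 of that group. Without it, Creb3l3 changed by 0.47 (adjusted p = 0.152) and Abca1 by 0.11 (adjusted p = 0.698), and neither was called. The calls of Angptl4 (1.70, adjusted p = 0.0672), Saa1 (3.31, adjusted p = 0.0608) and Dgat2 (-0.62, adjusted p = 0.0554) were lost as well, as were those of Nr0b2 (-1.28, adjusted p = 0.157) and Alb (-0.38, adjusted p = 0.251). Without replicate 1 the calls of Angptl4 (adjusted p = 0.0807) and Alb (adjusted p = 0.164) were lost, and without replicate 3 that of Nr0b2 (adjusted p = 0.104). Among all 13682 genes tested without replicate 2, 1264 were called higher and 1036 lower. In that fit 3 of the other apolipoprotein genes were called higher, Apoc2, Apoc4 and Saa2, and 2 lower. For assembly 3 were higher and 2 lower, and for HDL 1 was higher, Scarb1 in place of Abca1, and 4 lower. For clearance 1 was higher, Sdc1, and 2 lower, and for regulators 1 was higher, Foxa3, and 3 lower. Of the secreted proteins 5 were higher and 0 lower. Apoc4, Scarb1 and Foxa3 are named here after their values were seen.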

How the data were processed

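Total RNA depleted of ribosomal RNA was sequenced in 36 libraries, and the authors deposited raw read counts for each symbol, as whole numbers and without normalization. The submitters' processing notes name STAR 2.7.5b, featureCounts, Trimmomatic 0.39, SAMtools 1.10 and Picard 2.20.8 and the builds GRCm38 and mm10. The annotation and the strand setting are not given in the sources used here. The labels' protocols describe ERCC spike-in mixes that differed between the ages, and the tables hold 0 ERCC rows, so total RNA per cell cannot be seen.

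The quasi-likelihood tests of edgeR 4.0.16 were used (R 4.3.3), with filterByExpr, TMM scaling (factors 0.930 to 1.13), 1 fit of all 12 groups with robust dispersion, and Benjamini-Hochberg adjustment over 13436 genes. The robust option follows an earlier fit of these data. Fold changes are on the log2 scale. Replicates of a group differed by more than sampling noise, with a lowest chi-square per degree of freedom of 5.09. Fits were tested on simulated counts. The tables hold 27 date-like symbols and 2 repeated symbols, none of them a member.

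Alternatives were other scalings and filters, DESeq2 1.42.0, a replicate block, a term for Y-linked transcripts, leaving out each library or the whole old 48 group, and fitting no more than the groups being compared. The default without the robust option, the ratio tests and the lists and their named genes without each old 48 library were added after seeing the data. The 10 members, the 6 pathway lists and the 7 marker lists were chosen with earlier results of these data known. Named genes were all members, 8 genes taken whatever their result (some of them are not reported here), the 2 called genes of each pathway list with the largest change at 48 in each age, and the 2 genes most correlated with each member. Gene positions and promoters are from RefSeq (GRCm38.p6).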

Additional observations from a re-analysis of the deposited data

How the results depend on the processing

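Of 11560 member values recomputed over 47 settings, 131 lost and 51 gained a call, and none that was called changed sign. The rise of Apoa4 against before in old mice at 48, 72 and 96 kept its call in every setting. Without the old 48 group, 3 members were called in old mice at 120 (1 with it), 2 at 96 (1), 4 at 72 (3), and 1 in old against young at 96 and at 120 (0 in both). Fitting no more than the groups being compared gave 1 in old mice at 48 (5), 0 at 120, 0 in old against young at 48 (2), 1 there at 96, and 1 in young mice at 96 and at 120 (0 in both). Such fits also gave 2 in old mice at 72 (3), and 4 at 48 and 2 at 72 in young mice (3 in both). With no filter on low counts, 1 was called in old mice at 72 (3), 1 in old against young at 48 and 2 in any time difference in old mice (5). DESeq2 called 2 in old mice at 120, 1 in old against young at 96 and at 120, and 2 in the interaction (0). It also called 6 in old mice at 48 (5), 4 at 72 (3) and 6 at any time (5). A term for Y-linked transcripts gave 2 in old mice at 120. The share of all genes called is not given for these settings, so the shifts cannot be told apart from a shift in all calls, and their cause was not tested. In old mice at 48, leaving out replicate 1, 2 or 3 of that group gave calls for 19.3%, 16.8% or 26.9% of all genes. Leaving out 1 library gave 1 to 5 members in old mice at 48, 1 to 3 at 72, 1 to 2 at 96, 1 to 3 at 120 and 2 to 5 at any time. In young mice it gave 1 to 3 at 48, 2 to 3 at 72 and 2 to 4 at any time. For old against young it gave 0 to 3 at 48, 0 to 1 at 120 and 1 to 2 averaged, and for the interaction 0 to 2.

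Same-numbered libraries did not pair at all time points alike. The mean correlation of their deviations from group means was 0.04 in young, 0.08 in old and 0.06 between ages, over 0.1 in 19 of 45, 19 of 45 and 7 of 18 pairs, and a library correlated best with its own number in 32 of 90 comparisons in young and 38 of 90 in old mice. Single values ran from -0.38 to 0.57 in young and from -0.37 to 0.58 in old mice. Between before and 240 they were 0.57, 0.28 and 0.18 in young and 0.58, 0.37 and 0.45 in old mice. In each of these groups replicate 1 was the library with Y-linked transcripts. With a replicate block, 1 member, Apoa4, was called in the interaction and 2 in old mice at 72 (adjusted p of Apom = 0.0605), and the other counts were those without the block. Total-count scaling moved the median log2 change of all genes against before by over 0.1 in young mice at 48 (by 0.11), 72 (0.20) and 96 (0.11) and in old mice at 72 (0.12).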
